A study of Homo sapiens with 12 samples.

Results

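The genes described here are 10 regulators of apoptosis of the BCL2 family, chosen by name and measured in HCT116 cells and in a pair of lines made from them. Every probe set of the array whose platform annotation names a member was taken, which gave 30 probe sets for 9 of the 10 genes among 19775 genes that have a probe set of their own. The only probe set that lists BBC3, the gene of the BH3-only protein PUMA, also lists MIR3190 and MIR3191, so no value is given for BBC3. Of the other members, 8 reached a group mean of 6 or more on the log2 scale somewhere and were tested, and 25 of the 30 probe sets did so too. BMF was near background everywhere.

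HCT116 is a human colorectal cancer cell line that carries an activating RAS mutation. Hke3 and Hkh-2 are isogenic clones in which that allele was altered by homologous recombination, and both were grown in basal condition. The methods speak of the mutant allele as deleted, while the supplementary description speaks of replacement by the wild-type allele. The other groups were HCT116 control cells given vehicle or 25 ng/ml doxycycline and collected on day 3, with 3 arrays in each of the 4 groups. Whether these control cells are the parental line in basal condition, or carry an inducible control vector, is not settled by the sources. Clone, culture condition, any such vector and allele therefore cannot be told apart. It is also not stated whether arrays of a group were separate cultures, so p-values reflect only how far arrays of a group differ, possibly for technical reasons.

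BCL2 family proteins decide whether the mitochondrial outer membrane is opened in apoptosis. The antiapoptotic members MCL1, BCL2 and BCL-XL (the product of BCL2L1) hold the proapoptotic members in check. BAX and BAK1 are the effectors that form pores in the membrane, and the BH3-only proteins BIM (BCL2L11), NOXA (PMAIP1), PUMA (BBC3), BID and BMF relay stress signals by binding the antiapoptotic members or the effectors. RAS signalling through the MAPK cascade is known to promote the degradation of BIM protein and to stabilise MCL1 protein, neither of which an RNA array measures.

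The values are log2 expression values made by the authors with RMA, and differences are between group means on that scale. A gene was represented by its brightest probe set, and the test was limma with Benjamini-Hochberg adjustment over 12852 genes, called at an adjusted p under 0.05. In bulk RNA, fewer cells of a type and less RNA per cell cannot be told apart. Array medians lay between 5.80 and 5.86, and the correlation of arrays of a group was 0.993 to 0.998 over probe sets. Replicate 2 of HCT116 vehicle and replicate 3 of Hke3 lay apart from their groups, and they departed from their group means alike (r = 0.683 across genes). Calls of members, and of named related genes between HCT116 and each line, that change without these arrays are therefore given both ways. Between the lines, such changes of related genes are given as counts only. All 8 colon epithelial markers were at 6 or more in every group, with a mean per array of 10.48 to 10.56 in HCT116 vehicle, of 10.53 to 10.74 in Hke3, and of 11.13 to 11.17 in Hkh-2. Markers of other cell types were mixed. PTPRC and CD14 of leukocytes, CDH5 of endothelium, and COL1A2 and LUM of fibroblasts were near background in all groups. CD3E, PECAM1, COL1A1 and DCN were at 6 or more in every group. The fibroblast marker COL3A1 had means of 4.49 in HCT116 vehicle, 4.45 in Hke3 and 6.73 in Hkh-2. The endothelial marker VWF had 6.35, 5.34 and 5.32. Of the 5 fibroblast markers, 2 were at 6 or more in HCT116 vehicle and in Hke3 and 3 in Hkh-2, with mean levels per array of 5.41 to 5.48, 5.37 to 5.59 and 5.80 to 5.98. Of the 3 endothelial markers, 2 were at 6 or more in HCT116 vehicle and 1 in each recombined line, with mean levels of 5.64 to 5.77, 5.23 to 5.34 and 5.15 to 5.46, and of the 3 leukocyte markers measured, 1 was at 6 or more in every group. The 5′ minus 3′ signal of the actin control probes, a sign of RNA integrity and labelling, ran from -0.85 to -0.48 in HCT116 vehicle, from -0.58 to -0.23 in Hke3, and from -0.32 to -0.23 in Hkh-2. The part of these differences in the results was not tested.

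The family did not move as a block. HCT116 differed from Hke3 in 2 of the 8 tested members, PMAIP1 and BCL2L11, both lower in HCT116. HCT116 differed from Hkh-2 in 6 of 8, with MCL1, PMAIP1 and BCL2L11 higher in HCT116 and BAX, BAK1 and BID lower. The lines themselves differed in 4 of 8, with PMAIP1 and BCL2L11 higher in Hke3 and BAK1 and BID higher in Hkh-2. Among all genes tested, 47.8% were called against Hke3 (24.6% higher and 23.2% lower in HCT116), 36% against Hkh-2 (14.3% higher and 21.7% lower) and 39.8% between the lines (16.3% higher and 23.5% lower in Hke3). With 8 members, the share against Hke3 lay below that background and the share against Hkh-2 above it. Without both arrays that stood apart, the counts were 2, 7 and 6. The share over all genes in that fit is not given here, so these counts have no background beside them. Among 72 tested related genes, that fit gained 7, 5 and 11 calls and lost 4, 0 and 0. The median difference of the tested members was -0.10 against Hke3 and -0.19 against Hkh-2, beside 0.04 and -0.02 over all genes tested.

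No tested member passed in 1 direction against both lines, a pattern that 21.6% of genes showed. By unadjusted p under 0.05 in both comparisons, 1 member, BID, was lower. PMAIP1 and BCL2L11 instead lay in opposite directions, lower than Hke3 and higher than Hkh-2. In all, 2.32% of genes were called in opposite directions against the lines, and 1.21% in this order. The comparisons with the lines share the HCT116 vehicle arrays.

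**Figure D1:**
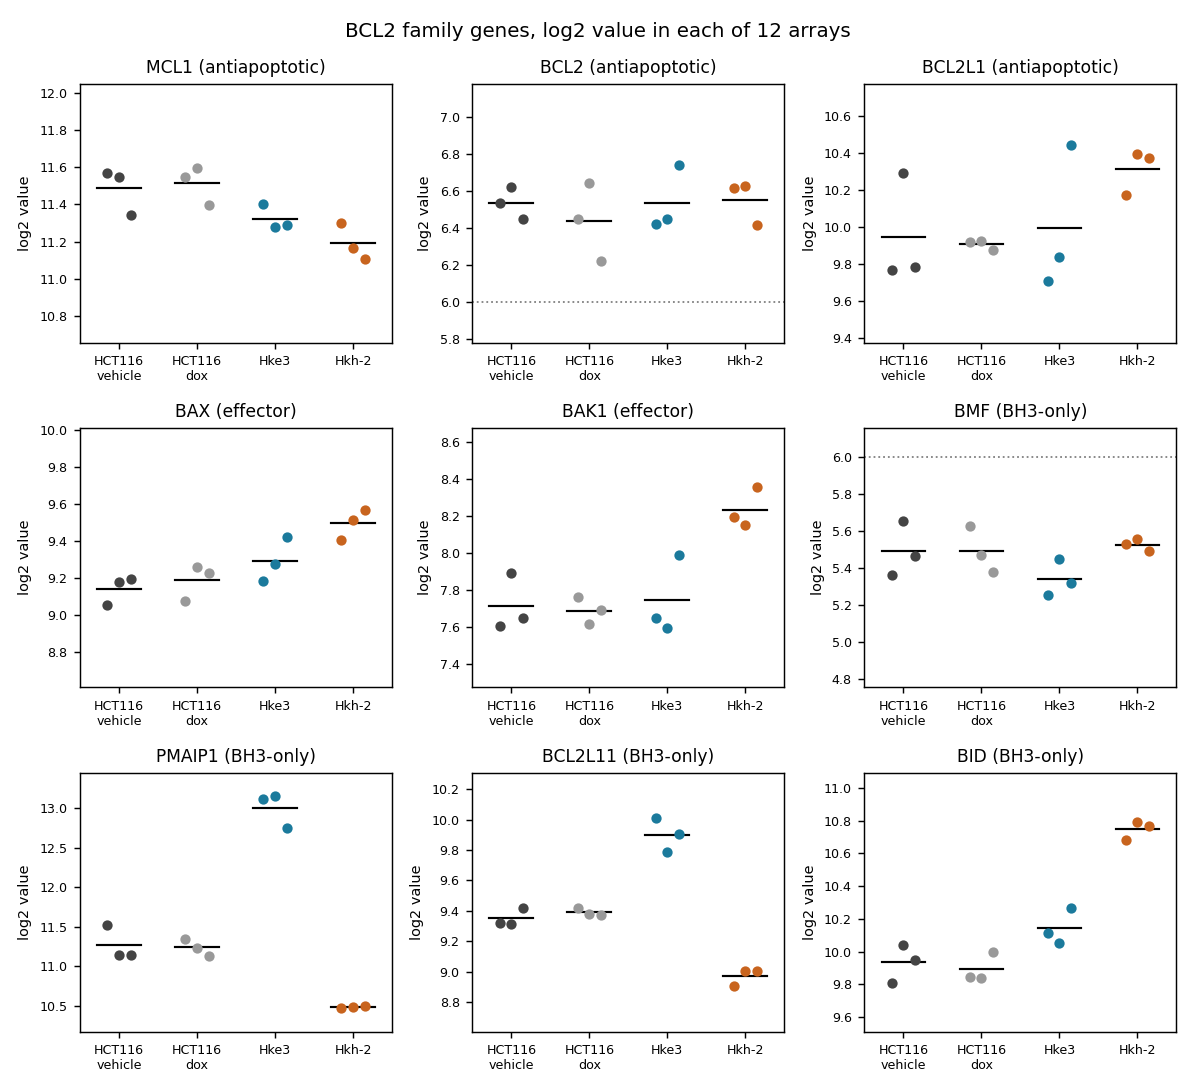
Log2 expression value (vertical axis, own range in each panel) of the representing probe set of 9 genes in each array, by group, with a line at the mean of 3 arrays and a dotted line at 6 where it falls in the panel. PMAIP1 and BCL2L11 are highest in Hke3 and lowest in Hkh-2, BID and BAK1 are highest in Hkh-2, and BMF stays under 6.

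PMAIP1, the gene of NOXA, which binds MCL1 and favours its breakdown, had the largest differences among the tested members against Hke3 and between the lines, while against Hkh-2 its difference was close in size to that of BID. It lies at chr18:59899996-59904305 (GRCh38.p14). Its log2 values were 11.52, 11.14 and 11.14 in HCT116 vehicle, 13.12, 13.15 and 12.75 in Hke3 and 10.47, 10.48 and 10.50 in Hkh-2. All Hke3 arrays lay above all HCT116 vehicle arrays, and these lay above all Hkh-2 arrays. The mean was 11.27 ± 0.217 (SD, n = 3) in HCT116 vehicle, 13.01 ± 0.223 in Hke3 and 10.48 ± 0.0154 in Hkh-2. PMAIP1 was 3.34-fold lower in HCT116 than in Hke3, a log2 difference of -1.74 (SE 0.122, limma adjusted p = 1.51e-07), and 1.72-fold higher than in Hkh-2 (log2 difference 0.78, limma adjusted p = 0.000235). Between the lines it was 5.75-fold higher in Hke3 (log2 difference 2.52, 95% CI 2.26 to 2.79, limma adjusted p = 6.96e-09).

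The second probe set of PMAIP1, 204286_s_at, gave the same order. Its values were 10.87, 10.42 and 10.55 in HCT116 vehicle, 12.85, 12.83 and 12.55 in Hke3 and 10.30, 10.09 and 10.14 in Hkh-2. The groups did not overlap, although the lowest HCT116 array lay close to the highest Hkh-2 array. The log2 differences were -2.13 against Hke3 and 0.44 against Hkh-2 (limma adjusted p = 7.37e-08 and 0.0203 over probe sets).

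BCL2L11, the gene of BIM, which binds all antiapoptotic members and can also act on the effectors, followed the same order with smaller differences. It lies at chr2:111120914-111168445 (GRCh38.p14). Its log2 values were 9.32, 9.31 and 9.42 in HCT116 vehicle, 10.01, 9.79 and 9.91 in Hke3 and 8.90, 9.01 and 9.002 in Hkh-2. None of these groups overlapped. HCT116 was 1.47-fold lower than Hke3 (log2 difference -0.55, SE 0.0738, limma adjusted p = 5.45e-05) and 1.30-fold higher than Hkh-2 (0.38, limma adjusted p = 0.00136). Hke3 was 1.91-fold higher than Hkh-2 (0.93, 95% CI 0.77 to 1.09, limma adjusted p = 6.96e-07).

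BCL2L11 is transcribed into several isoforms, and its 6 tested probe sets did not all differ between groups. Of these, 4 were lower in HCT116 than in Hke3, 2 were higher than in Hkh-2, and 5 were higher in Hke3 than in Hkh-2. Probe set 1558143_a_at gave -0.56 against Hke3 and 0.47 against Hkh-2 (limma adjusted p = 7.79e-05 and 0.000416 over probe sets), close to the representing one. Probe set 222343_at was lower than in Hke3 by a similar amount (-0.58), while its difference from Hkh-2 was 0.15 (limma adjusted p = 0.318, 95% CI -0.08 to 0.38). Probe set 1553088_a_at lay between 7.50 and 7.78 in every HCT116 vehicle, Hke3 and Hkh-2 array, with differences of -0.02 (95% CI -0.20 to 0.16) and 0.00 (-0.18 to 0.17). The differences of the other BCL2L11 probe sets were not seen with this one. The seventh, 208536_s_at, had a mean under 6 in every group and was not tested.

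Over the 12 arrays, PMAIP1 and BCL2L11 correlated with r = 0.956, a description that rests mainly on the differences between groups. Because these members moved together, the 250 bases before the annotated start of each are shown, from RefSeq (GRCh38.p14), 5′ to 3′ on the strand of the gene (plus for both). The windows are chr18:59899746-59899995 for PMAIP1 and chr2:111120664-111120913 for BCL2L11. Capitals mark matches, on either strand, to the letters searched, which were CACGTG (E-box), TGACG (half-site of the cAMP response element), TGATGNAA (amino acid response element), TGTTTAC (forkhead site), GGGCGG (GC box), TGANTCA (AP-1 site) and TTTGGCGC or TTTCCCGC (E2F site).
PMAIP1: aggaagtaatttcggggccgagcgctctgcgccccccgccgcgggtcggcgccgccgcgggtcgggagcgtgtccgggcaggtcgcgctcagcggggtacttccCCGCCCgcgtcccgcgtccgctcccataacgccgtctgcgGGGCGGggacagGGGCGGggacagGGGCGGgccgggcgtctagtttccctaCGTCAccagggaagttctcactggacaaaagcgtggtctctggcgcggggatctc
BCL2L11: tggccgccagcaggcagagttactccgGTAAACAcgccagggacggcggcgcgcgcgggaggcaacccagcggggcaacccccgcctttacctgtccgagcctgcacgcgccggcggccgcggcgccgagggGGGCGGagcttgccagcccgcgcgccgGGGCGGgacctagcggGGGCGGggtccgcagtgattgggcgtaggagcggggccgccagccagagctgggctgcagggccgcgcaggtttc
Both windows are rich in GC, at 72.8% for PMAIP1 and 76.8% for BCL2L11 beside a median of 58% over 35116 promoter windows of the same length. Each holds GC boxes, 4 in PMAIP1 and 3 in BCL2L11, as do 42.6% of all windows (1 or more). These traits are not particular to this pair. BID, which had another order over the groups, had 47.6% to 78% GC over its annotated starts, with up to 4 GC boxes. BCL2 had 70% GC, and BAK1 had 58% with 2 GC boxes. PMAIP1 holds 1 TGACG match 55 bases before its start, written as CGTCA, and 21.2% of windows hold this half-site. BCL2L11 holds 1 forkhead match 223 bases before its start, written as GTAAACA, and 2.98% of windows hold it. The other motifs were found in neither window, and in all windows their shares were 6.34% for the E-box, 3.14% for the amino acid response element, 6.57% for the AP-1 site and 1.93% for the E2F site. The marked matches do not overlap one another. A match is a string of letters and not a measured binding site.

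BID, which caspase 8 cleaves to link death receptors to mitochondria, was highest in Hkh-2. It lies at chr22:17734138-17774665 (GRCh38.p14). Its log2 values were 9.81, 10.04 and 9.95 in HCT116 vehicle, 10.11, 10.05 and 10.27 in Hke3 and 10.68, 10.79 and 10.77 in Hkh-2. Every Hkh-2 array lay well above the others, and every Hke3 array lay above every HCT116 vehicle array by a narrow margin. HCT116 was 1.76-fold lower than Hkh-2 (log2 difference -0.81, SE 0.0853, limma adjusted p = 7.68e-06). Its difference from Hke3 was -0.21 (95% CI -0.39 to -0.03), which missed the threshold (limma adjusted p = 0.0588). Hke3 was lower than Hkh-2 by a log2 difference of -0.60 (limma adjusted p = 0.00012).

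The other probe sets of BID passed the threshold against both lines. Probe set 227143_s_at gave 9.65, 9.71 and 9.63 in HCT116 vehicle, 10.13, 10.04 and 10.17 in Hke3 and 10.68, 10.75 and 10.72 in Hkh-2. These groups stood clearly apart in 3 steps, with differences of -0.45 and -1.05 from HCT116 to the lines (limma adjusted p = 0.000183 and 1.16e-07 over probe sets). Probe set 204493_at gave -0.44 and -0.94 (limma adjusted p = 0.00287 and 9.58e-06). With the mean of all probe sets of a gene in place of the brightest, BID passed against Hke3 as well as Hkh-2 (-0.37 against Hke3, limma adjusted p = 0.000303). Without HCT116 vehicle replicate 2, the difference of the brightest probe set from Hke3 was -0.26 (limma adjusted p = 0.0314).

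BMF, a BH3-only gene whose protein is held at the cytoskeleton, had means of 5.49 ± 0.149 in HCT116 vehicle, 5.34 ± 0.0992 in Hke3 and 5.53 ± 0.032 in Hkh-2 (SD, n = 3). All are under 6, so no difference is given.

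The effectors BAX and BAK1 were both lower in HCT116 than in Hkh-2, and neither was called against Hke3. BAX had log2 values of 9.05, 9.18 and 9.19 in HCT116 vehicle, 9.18, 9.27 and 9.42 in Hke3 and 9.40, 9.51 and 9.56 in Hkh-2. The HCT116 and Hkh-2 arrays did not overlap, and Hke3 overlapped both. The difference was -0.35 against Hkh-2 (SE 0.0848, limma adjusted p = 0.00538), -0.15 against Hke3 (95% CI -0.33 to 0.03) and -0.20 between the lines (limma adjusted p = 0.0747). Without Hke3 replicate 3, the last was -0.27 (limma adjusted p = 0.0194), as it was without both arrays that stood apart (limma adjusted p = 0.0133). The second BAX probe set, 208478_s_at, gave -0.28 against Hkh-2 (limma adjusted p = 0.018 over probe sets) and -0.15 against Hke3 (0.16).

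BAK1, measured by a single probe set, had log2 values of 7.61, 7.90 and 7.65 in HCT116 vehicle, 7.65, 7.59 and 7.99 in Hke3 and 8.20, 8.15 and 8.36 in Hkh-2. Only Hkh-2 stood apart. HCT116 was 1.43-fold lower than Hkh-2 (log2 difference -0.52, SE 0.112, limma adjusted p = 0.00277), and Hke3 was lower than Hkh-2 by -0.49 (limma adjusted p = 0.0038). The difference between HCT116 and Hke3 was -0.03 (95% CI -0.27 to 0.21).

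**Figure D2:**
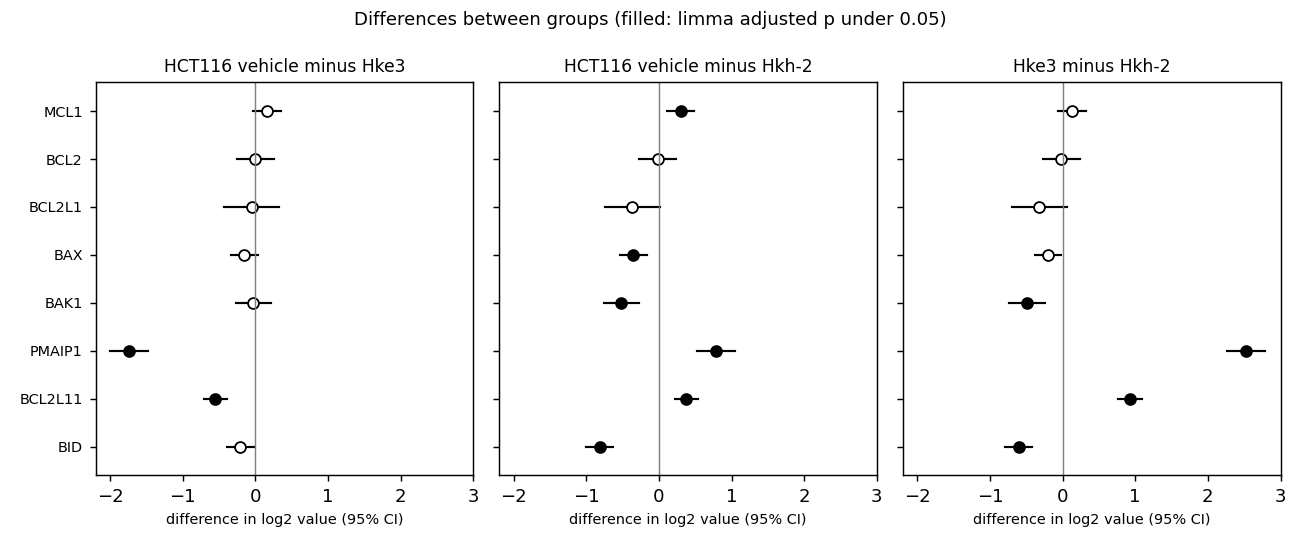
Difference in mean log2 value (horizontal axis) for 8 genes in 3 comparisons, with 95% confidence intervals from the limma fit, filled where the adjusted p is under 0.05. PMAIP1 and BCL2L11 lie on the negative side against Hke3 and on the positive side against Hkh-2, while BAX, BAK1 and BID are called on the negative side against Hkh-2.

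Among the antiapoptotic members, MCL1 was called against Hkh-2 and no member against Hke3. MCL1, whose short-lived protein restrains BAK1 and BIM, had log2 values of 11.57, 11.55 and 11.34 in HCT116 vehicle, 11.40, 11.28 and 11.29 in Hke3 and 11.30, 11.16 and 11.11 in Hkh-2. HCT116 lay above Hkh-2 in every array, with a gap smaller than the range within either group, and Hke3 overlapped both. HCT116 was 1.23-fold higher than Hkh-2 (log2 difference 0.30, SE 0.0883, limma adjusted p = 0.0186). The call was lost without HCT116 vehicle replicate 1 (limma adjusted p = 0.0748), Hkh-2 replicate 2 (0.0604) or Hkh-2 replicate 3 (0.078). The difference from Hke3 was 0.16 (95% CI -0.03 to 0.35).

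The 6 probe sets of MCL1 gave differing results. Against Hkh-2, 2 were called, 200797_s_at above and 227175_at, which lay near background in Hkh-2 and was higher in HCT116 by at least 0.57 (limma adjusted p = 0.000345 over probe sets). Probe sets 200798_x_at and 200796_s_at gave -0.09 and -0.01 (limma adjusted p = 0.417 and 0.959). Probe set 214056_at varied most, with 8.31, 6.82 and 7.99 in HCT116 vehicle, 8.54, 8.82 and 7.69 in Hke3 and 6.91, 7.04 and 7.87 in Hkh-2. Its lowest values in HCT116 vehicle and Hke3 came from the arrays that stood apart, and its HCT116 and Hkh-2 values overlapped. Without both arrays, 214056_at and 214057_at were higher in HCT116 than in Hkh-2 by 0.87 and 0.82 (limma adjusted p = 0.00958 and 0.00376 over probe sets), beside 0.43 and 0.58 (0.397 and 0.0989) with them. Between the lines with all arrays, 2 MCL1 probe sets were called higher in Hke3. These were 227175_at, by at least 0.42 (limma adjusted p = 0.0029 over probe sets), and 214056_at, by 1.08 with overlapping arrays (0.0365). Without both arrays, 214057_at was also higher in Hke3 by 0.90 (limma adjusted p = 0.00161 over probe sets), beside 0.63 (0.0719) with them.

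BCL2L1, the gene of BCL-XL, differed between its probe sets and between arrays. The representing probe set, 212312_at, gave 9.77, 10.29 and 9.79 in HCT116 vehicle, 9.71, 9.84 and 10.44 in Hke3 and 10.17, 10.40 and 10.37 in Hkh-2. The high array of HCT116 vehicle and that of Hke3 were the ones that stood apart, and both reached the Hkh-2 range. The difference was -0.37 against Hkh-2 (SE 0.175, limma adjusted p = 0.123) and -0.05 against Hke3 (95% CI -0.43 to 0.33). Without both arrays, HCT116 was lower than Hkh-2 by -0.54 (limma adjusted p = 0.000154), as was Hke3 (-0.54, limma adjusted p = 0.000103).

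Probe sets 206665_s_at and 215037_s_at of BCL2L1 passed against each line, lower in HCT116. The former gave 7.49, 8.21 and 7.59 in HCT116 vehicle, 8.14, 8.20 and 8.84 in Hke3 and 8.33, 8.45 and 8.48 in Hkh-2. HCT116 vehicle replicate 2 overlapped Hke3, and no HCT116 vehicle array reached Hkh-2. The differences were -0.63 and -0.66 against Hke3 and Hkh-2 for 206665_s_at (limma adjusted p = 0.0271 and 0.0272 over probe sets) and -0.68 and -0.64 for 215037_s_at (0.0262 and 0.0407). The fourth, 231228_at, was called only between the lines, lower in Hke3 by -0.30 (limma adjusted p = 0.0139).

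BCL2, the founding antiapoptotic gene, lay just above background. Its representing probe set gave 6.53, 6.62 and 6.44 in HCT116 vehicle, 6.42, 6.45 and 6.74 in Hke3 and 6.62, 6.62 and 6.41 in Hkh-2. The groups overlapped throughout, with differences of 0.00 against Hke3 (95% CI -0.25 to 0.25) and -0.02 against Hkh-2 (-0.27 to 0.23). Its other 3 probe sets had means under 6 in every group. Of these, 203685_at had means of 3.52 in HCT116 vehicle, 4.94 in Hke3 and 4.28 in Hkh-2, all in the range where no size of a difference can be given.

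Over all members, 10 of 25 tested probe sets were called against Hke3, 14 against Hkh-2 and 14 between the lines, beside 44.7%, 35.5% and 35.9% of all probe sets tested. All 10 called against Hke3 were lower in HCT116, 4 of BCL2L11 and 2 each of PMAIP1, BID and BCL2L1. By their representing probe sets, BID and BCL2L1 were not called against Hke3. The share of all probe sets called lower is not given here. Probe sets of 1 gene measure overlapping RNA and are not independent. Lower than in both lines were 2 probe sets of BID and 2 of BCL2L1, and 2 of PMAIP1 and 2 of BCL2L11 were lower than in Hke3 and higher than in Hkh-2.

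**Figure D3:**
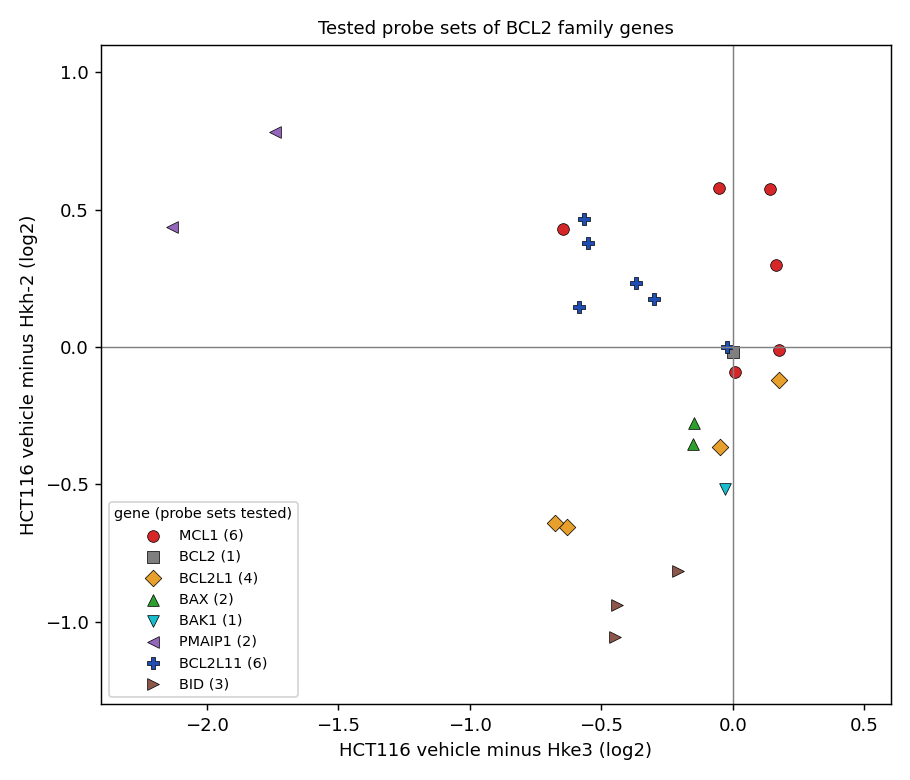
Difference in mean log2 value between HCT116 vehicle and Hke3 (horizontal axis) and between HCT116 vehicle and Hkh-2 (vertical axis) for the 25 tested probe sets, with colour and shape by gene. Both axes share the HCT116 vehicle arrays. Both PMAIP1 probe sets lie at the upper left and the 3 BID probe sets at the lower left, while the MCL1 and BCL2L1 probe sets are spread out.

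With doxycycline, no tested member passed the threshold against vehicle. If the control cells carry an inducible vector, doxycycline and what it induces cannot be told apart here. None of the 8 was called by limma, 0% of all genes tested were called, and at an unadjusted p under 0.05 there were 0 members and 127 genes. PMAIP1 had log2 values of 11.35, 11.23 and 11.13 with doxycycline, BCL2L11 had 9.42, 9.38 and 9.38, and BID had 9.85, 9.84 and 10.00. Each of these groups overlapped its vehicle arrays. The log2 difference from vehicle was -0.03 for PMAIP1 (95% CI -0.29 to 0.23), 0.04 for BCL2L11 (-0.12 to 0.20) and -0.04 for BID (-0.22 to 0.14). The other tested members ran from -0.10 for BCL2 to 0.05 for BAX.

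By probe set, 0 of the 25 tested were called with doxycycline by limma, and 3 had an unadjusted p under 0.05, of MCL1 and BCL2L1. The share of all tested probe sets at that level is not given here, so whether 3 is unusual cannot be said. Probe set 227175_at of MCL1 gave 6.38, 6.12 and 6.33 with doxycycline and 6.60, 6.59 and 6.50 with vehicle. These arrays did not overlap, with a log2 difference of -0.29 (95% CI -0.49 to -0.09, limma unadjusted p = 0.008565, adjusted p = 1). Probe set 200796_s_at of MCL1 gave -0.29 and 215037_s_at of BCL2L1 gave -0.51 (limma unadjusted p = 0.04917 and 0.04043, adjusted p = 1 for both), with overlapping arrays.

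Around the family, 9 lists of 84 related genes were examined, of which 72 were tested. In total 36 (50%) were called against Hke3, 27 (37.5%) against Hkh-2 and 31 (43.1%) between the lines, each near the share over all genes. Without both arrays that stood apart, 32, 27 and 31 of these calls were kept, and 7, 5 and 11 were gained. Outside the members, BCL2L2 (BCL-W, antiapoptotic) was lower in HCT116 than in Hke3 by -0.31 (limma adjusted p = 0.0139). BCL2A1 and BCL2L10 were near background. BOK, an effector relative, was lower than in Hkh-2 by -1.07 (limma adjusted p = 0.00278), and so was the BH3-only gene BAD by -0.38 (0.0137). Against Hke3 they gave 0.33 and 0.25 (limma adjusted p = 0.255 and 0.0685), and without both arrays that stood apart both were called higher there, by 0.38 and 0.37 (0.0109 and 0.000949). HRK, also BH3-only, was higher than in Hke3 by 0.39 (limma adjusted p = 0.00152), and BIK, another, gave 0.10 and 0.20 with no call (0.443 and 0.16). By group mean, the proapoptotic genes went different ways. BAX, BAK1, BID, BOK and BAD were highest in Hkh-2, as was the antiapoptotic BCL2L1, though without a call. PMAIP1, BCL2L11 and BIK were lowest in Hkh-2, and HRK was highest in HCT116 vehicle.

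Downstream of the members, the apoptosome and caspase list had 7 tested genes. Against Hke3, 1 passed as higher and 3 as lower in HCT116, and against Hkh-2 3 passed as lower. These are 57.1% and 42.9%, beside 47.8% and 36% of all genes tested. The median difference was -0.16 and -0.21 beside 0.04 and -0.02 over all genes. CASP8, the initiator caspase that cleaves BID, was lower than in both lines by -0.76 and -0.63 (limma adjusted p = 0.000384 and 0.00206), and the executioner CASP6 by -1.04 and -0.74 (1.86e-05 and 0.000426). Among 7 tested IAP proteins and antagonists, 1 was higher and 3 lower against Hke3 (57.1% called), with 2 lower against Hkh-2 (28.6%). Among the inhibitors, both named after their values were seen, BIRC2 was lower than in Hke3 by -1.14 (limma adjusted p = 1.12e-05) and XIAP by -0.77 (0.000171), with -0.26 and -0.13 against Hkh-2 (0.14 and 0.418). DIABLO, which releases caspases from IAP proteins, was lower than in both by -0.19 and -0.21 (limma adjusted p = 0.0293 and 0.0286), and the call against Hke3 was lost without both arrays that stood apart (-0.15, limma adjusted p = 0.0713). HTRA2, another such antagonist and named after its values were seen, went in opposite directions, 0.38 and -0.47 (limma adjusted p = 0.0169 and 0.00656).

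At the outer membrane, 3 of 7 genes passed as higher and 1 as lower in HCT116 against Hke3, with 2 and 1 against Hkh-2. Those called are 57.1% and 42.9%, beside 47.8% and 36% of all genes tested. The channel genes VDAC1 (0.39 and 0.23, limma adjusted p = 0.00219 and 0.0499) and VDAC2, whose protein binds BAK1 (0.21 and 0.42, 0.0178 and 0.000241), were higher than in both lines. MFF, a receptor for the fission machinery, was lower than in both by -0.30 and -0.58 (limma adjusted p = 0.0229 and 0.000488). Among 7 divergent relatives, 3 were lower in HCT116 against each line and none was higher. Over all genes tested, 23.2% were lower against Hke3 and 21.7% against Hkh-2. Between the lines, 1 divergent relative was higher and 2 were lower in Hke3. BNIP3 and BNIP3L, mitophagy receptors, were lower than in both lines by -0.45 and -0.47 (limma adjusted p = 0.00112 and 0.00107) and by -0.38 and -0.26 (0.00227 and 0.0272).

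Upstream, 13 genes whose proteins modify or hold member proteins were tested. In HCT116, 1 was higher and 3 lower against Hke3 (30.8% called), with 1 and 6 against Hkh-2 (53.8%). Over all genes tested, 47.8% were called against Hke3 and 36% against Hkh-2. GSK3B, a kinase that marks MCL1 protein for degradation, was lower than in both lines by -0.69 and -0.49 (limma adjusted p = 1.03e-05 and 0.000247), and DYNLL2, the dynein light chain that binds BMF, by -0.24 and -0.22 (0.0113 and 0.0192). BTRC, a subunit of a ubiquitin ligase, was higher by 0.41 and 0.26 (limma adjusted p = 0.00123 and 0.026). Of 9 transcription factors known to act on the family, 2 were higher and 2 lower against Hke3 (44.4% called). A single one was lower against Hkh-2 (11.1%). This was STAT3, a factor for MCL1 and BCL2L1, lower than in both lines by -1.16 and -1.44 (limma adjusted p = 4.49e-07 and 6.12e-08).

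PMAIP1, BAX and BBC3 are p53 targets, and 17 others were tested. Against Hke3, 6 passed as higher and 5 as lower in HCT116 (64.7% called), and against Hkh-2 all 6 that passed were lower (35.3%). Over all genes tested, 47.8% were called against Hke3 and 36% against Hkh-2 (14.3% higher and 21.7% lower). The median difference was 0.08 and -0.08, beside 0.04 and -0.02 over all genes tested. GDF15, a secreted stress factor, was lower than in both lines by -1.01 and -1.35 (limma adjusted p = 0.00682 and 0.00139), as were TP53INP1 by -0.58 and -1.0 (0.00958 and 0.000321) and MDM2, the ligase of p53, by -0.50 and -0.54 (0.000249 and 0.000153). None of the 17 was called with the order of PMAIP1, lower than in Hke3 and higher than in Hkh-2. Only 1.21% of all genes tested had this order, so its absence among 17 genes says little. Whether p53 has a part in the order of PMAIP1 was not tested.

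**Figure D4:**
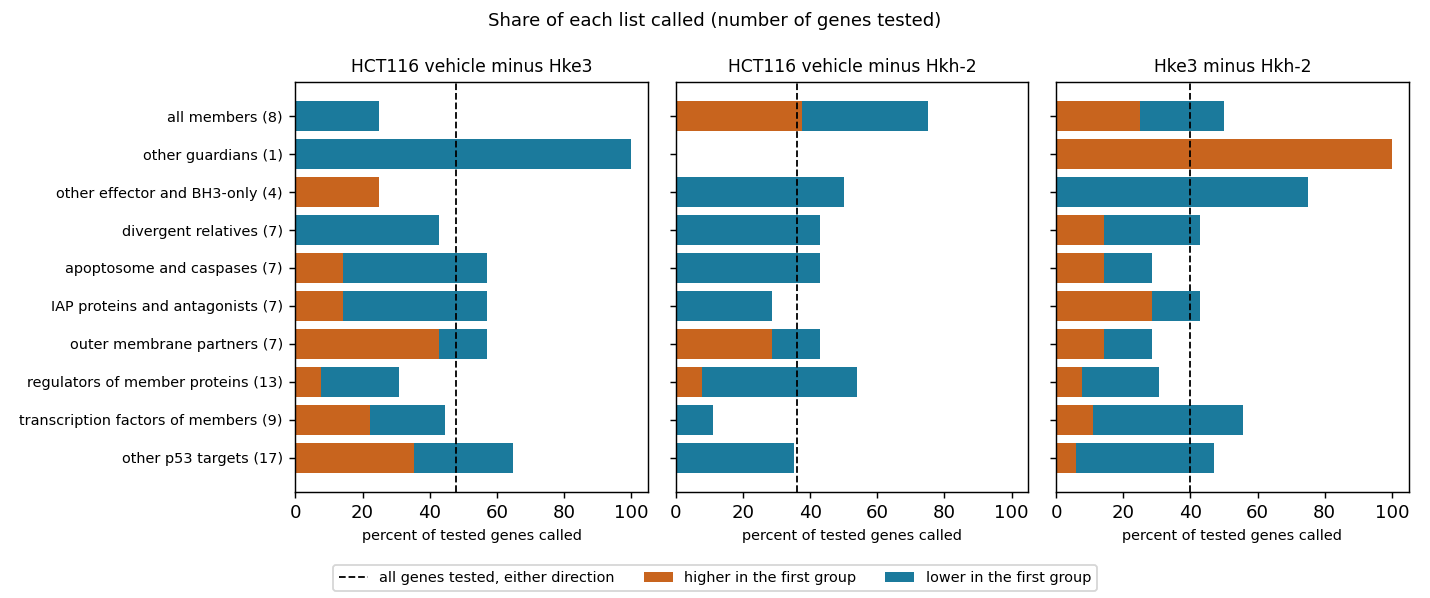
Percent of the tested genes of each list called by limma in 3 comparisons (horizontal axis), split into higher and lower in the first group, with the number of genes tested in brackets and a dashed line at the share over all genes. Bars of short lists rest on very few genes, as with the 1 tested gene of the other guardians.

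The genes whose log2 values ran most like those of PMAIP1 over the 12 arrays were ARHGAP18, HIPK2 and MYBL1 (Pearson r = 0.990, 0.989 and 0.987). For BCL2L11 they were GBE1, MAPK1IP1L and TLCD5 (r = 0.986, 0.984 and 0.984), and for BID they were TMT1B, SMAGP and RAB20 (r = 0.993, 0.990 and 0.989). These members were picked for this after their values were seen, and the arrays of a group share their line and condition. In HCT116 vehicle, Hke3 and Hkh-2, mean log2 values were 10.82, 11.69 and 10.39 for ARHGAP18. They were 9.58, 11.11 and 8.96 for HIPK2 and 8.33, 9.47 and 7.90 for MYBL1. Whether any of these genes acts on PMAIP1 was not tested.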

How the data were processed

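The deposited data are log2 values, 1 for each of 54675 probe sets on every Affymetrix human array, which the authors made with RMA per the submitters' processing notes, whose version is not given in the sources used here. Groups and replicate numbers came from the sample labels. Names came from the platform annotation, with symbols updated by gene ID to RefSeq (GRCh38.p14) for 41043 of 41097 probe sets that name 1 gene. A further 1801 name several genes and 11777 are unnamed here. Each gene took its brightest probe set by the mean over 12 arrays, and 12852 of 19775 genes with a group mean of at least 6 were kept, as were 27403 probe sets in a separate fit. limma 3.58.1 in R 4.3.3 (lmFit, contrasts, eBayes, checked on simulated data) was fitted to the 12 arrays together, with a mean for each of the 4 groups and Benjamini-Hochberg adjustment. A group mean under 6 was read as near background, and a difference from it is a lower bound, taken from 6.

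All members and up to 3 genes of each list called in 1 direction against both lines, with the largest difference nearer 0, were named, as were all close BCL2 relatives. The members and lists were chosen with earlier results of these data known. Replicate numbers pair only vehicle with doxycycline arrays (correlation of deviations 0.228, 0.212 and 0.453). The number of arrays limits the precision, and an exact test of 3 against 3 cannot go below a two-sided p of 0.1. Alternatives covered probe set choice, filters, normalization, fit, prior, pairing, control arrays, adjustment, size and left-out arrays. Arrays of an inducible knockdown were not analysed here, and no value is reported for the gene altered in Hke3 and Hkh-2.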

Additional observations from a re-analysis of the deposited data

Results flagged for a closer look

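The distance from HCT116 vehicle was unequal for Hke3 and Hkh-2 in 4 members, tested as the difference between the lines with limma. These are 50% of the tested members, beside 39.8% of all genes tested, so calls between the lines were common among all genes. Hke3 minus Hkh-2 was 2.52 for PMAIP1 (adjusted p = 6.96e-09) and 0.93 for BCL2L11 (adjusted p = 6.96e-07), with all 3 Hke3 arrays above all 3 Hkh-2 arrays. It was -0.60 for BID (adjusted p = 0.00012) and -0.49 for BAK1 (adjusted p = 0.0038), with all 3 Hke3 arrays below all 3 Hkh-2 arrays. How many of all genes had the arrays of the lines apart in this way was not counted. Each line is a single clone, so line and clone cannot be told apart.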

How the results depend on the processing

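Of the log2 differences of single members under the alternatives, 705 kept their direction and their side of the threshold or stayed uncalled, 12 lost the call, 19 gained one and 0 called differences turned. The count of members called against both lines in 1 direction, 0, became 1, in each case BID, with the mean of a gene's probe sets, without probe sets whose names end in _x_at or _s_at, with a group mean of 8 or more, with the array median subtracted, with cyclic loess and with vehicle and doxycycline arrays pooled. Leaving out 1 array at a time gave 0 to 1, the 1 coming without HCT116 vehicle replicate 2. Without _x_at and _s_at probe sets the count against Hkh-2 was 3 in place of 6, since PMAIP1 and BAX have no other probe set and MCL1 was not called (0.43, limma adjusted p = 0.381). Requiring a fold change of 2 or more left 1, 0 and 1 members against Hke3, against Hkh-2 and between the lines, and Holm adjustment left 1, 1 and 2. Member probe sets called against Hkh-2 ran from 9 to 16 when 1 array was left out, with 9 without HCT116 vehicle replicate 1. With the replicate block the counts were 2, 6 and 5 of 8 members, with 0 for doxycycline and 0 against both lines, and BAX was called between the lines (-0.20, limma adjusted p = 0.0361). The block changed no other call of a member. Of the 12 arrays, 6 correlated best with their own number. With 3 arrays a group, members near background carry no size.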
